A study of Mus musculus with 6 samples.

Results

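The genes described here encode the proteases of the neutrophil azurophil granule and the proteins that activate, inhibit and store them, with markers of the cells that make them. They are Mpo, Elane, Prtn3, Ctsg, Prss57, Ctsc, Serpinb1a, Srgn, Ms4a3 and Igfbp4. They were chosen by symbol, and all 10 were found among the 52636 genes listed. All 10 also passed the filter of a mean of at least 1 TPM, which left 9775 genes to test. TPM measures transcript abundance per unit of length, scaled to the same total in every library. RNA came from neutrophils of the bone marrow of C57BL/6N mice aged 10 weeks, in 3 libraries labelled WT and 3 labelled LRP5f/f/Lyz2Cre+, called LRP5-null below. In the LRP5-null mice both Lrp5 alleles were floxed and Cre was expressed from Lyz2, a gene of the myeloid lineage, so that deletion also reaches monocytes and macrophages. The labels give no Cre or floxed allele for the WT mice, and do not say whether each library is 1 animal, so p-values measure only the spread between these libraries. The comparison asks which transcripts differ between LRP5-null and WT neutrophils.

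Azurophil (primary) granules form at the promyelocyte stage, and the genes of their contents are transcribed mainly then and shut down as the cell matures. Myeloperoxidase makes hypochlorous acid, and the serine proteases elastase, proteinase 3, cathepsin G and neutrophil serine protease 4 (Prss57) cleave microbial and matrix proteins. Cathepsin C, a cysteine dipeptidyl peptidase, trims the N-terminal propeptide of these serine proteases and so makes them active. Serpinb1a is a cytosolic inhibitor of elastase, proteinase 3 and cathepsin G, and serglycin (Srgn) is the proteoglycan core protein on which granule proteases are packed. The proteases and peroxidase are known parts of neutrophil extracellular traps.

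The 4 serine proteases are shown by the coding stretch at the catalytic serine, since their near relationship decides whether reads can be told apart. Each stretch is 51 bases of the last coding exon, read 5′ to 3′ on the coding strand of NCBIM37 (mm9), with the codon of the catalytic serine in capitals. They lie at chr10:79350662-79350712 on the plus strand in exon 5 of 5 for Elane, chr10:79345563-79345613 on the plus strand in exon 5 of 5 for Prtn3, chr14:56718937-56718987 on the minus strand in exon 5 of 5 for Ctsg, and chr10:79246155-79246205 on the minus strand in exon 6 of 6 for Prss57.
Elane: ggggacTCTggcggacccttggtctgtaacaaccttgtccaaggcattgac
Prtn3: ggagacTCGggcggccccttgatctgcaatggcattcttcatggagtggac
Ctsg: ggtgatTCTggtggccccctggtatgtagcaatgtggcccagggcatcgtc
Prss57: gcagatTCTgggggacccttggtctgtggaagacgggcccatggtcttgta
Over their whole coding sequences, identity between the 4 genes was 63.1% to 68.3% in 6 pairwise alignments. In the longest coding transcript of each gene, no stretch as long as a read (94 bases) was shared between these 4. For 9 of the 10 genes, no such stretch lay in a protein-coding transcript of another gene. Pseudogenes and noncoding transcripts were not compared. The exception was Prss57, of whose 2748 such stretches 1062 (38.6%) also lie in Fstl3, a gene on the opposite strand whose end overlaps it. The read summary gives 99.37% to 99.51% of reads on the correct strand, but the sources used here do not say whether counting used strand, so values of Prss57 and Fstl3 may share reads.

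Promoters are shown for the 3 serine proteases whose entries hold matches near the start, because the members' levels are set against one another below. The stretches are 80 bases, from 110 to 31 bases before the start site in RefSeq (GRCm38.p6), 5′ to 3′ on the gene's strand, with motif matches in capitals. They are chr10:79886202-79886281 (plus) for Elane, chr10:79879557-79879636 (plus) for Prtn3 and chr14:56102605-56102684 (minus) for Ctsg.
Elane: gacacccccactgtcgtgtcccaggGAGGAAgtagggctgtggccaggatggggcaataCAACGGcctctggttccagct
Prtn3: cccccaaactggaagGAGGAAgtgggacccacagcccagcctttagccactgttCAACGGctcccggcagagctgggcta
Ctsg: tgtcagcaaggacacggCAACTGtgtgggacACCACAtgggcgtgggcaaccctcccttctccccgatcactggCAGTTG
Elane and Prtn3 each held the PU.1-type letters GAGGAA, 85 and 95 bases before the start, followed by the MYB-type letters CAACGG, 51 and 56 bases before it. Ctsg held MYB-type letters 93 and 36 bases before the start and a RUNX-type match 79 bases before it, with GAGGAA further out at 216 bases. Of the 10 genes, 8 had a RefSeq entry, and Prss57 and Serpinb1a did not. The window was 250 bases before the start on either strand, in the first RefSeq entry of each gene. In it, 6 of the 8 held a MYB-type match, against 23.7% of all promoters. For Mpo, Prtn3 and Srgn, the longest coding transcript in GENCODE starts before the RefSeq start. The MYB-type match of Mpo lies after that earlier start, that of Prtn3 spans it and that of Srgn lies before it. The letters counted as MYB-type were CAACTG, as in the promoter of Ctsg, CAACGG, as in those of Elane and Prtn3, TAACTG, as in that of Mpo, and TAACGG, as in that of Igfbp4. GAGGAA was in 5 of the 8, against 23.1% of all promoters. A RUNX-type match (TGTGGT or TGCGGT) was in 1 of the 8 (Ctsg) against 18.7%, and the second entry of Srgn also held one, 202 bases before its start. The C/EBP-type letters TTGCNNAA were in 0 of the 8 against 9.55%. Ms4a3, a member taken up below, held none of these letters in this window. A match is a description of the letters, not of binding.

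The libraries differed in ways other than their label. Total reads were between 249841492 and 340580330. Ribosomal RNA took 2.69% to 2.98% of reads in LRP5-null libraries and 3.30% in WT replicate 3, but 1.20% and 1.30% in the other WT libraries. Across genes, a library's deviation from the all-library mean correlated with GC content (Spearman) at 0.331 to 0.437 in LRP5-null libraries and 0.373 in WT replicate 3, but at -0.611 and -0.433 in the other WT libraries. WT replicate 3 thus stood with the LRP5-null libraries on both measures. Intronic reads were 7.78% to 9.0% in WT and 10.62% to 11.23% in LRP5-null libraries. The targeted transcript Lrp5 was 1.12, 1.31 and 1.42 TPM in WT and 1.68, 1.77 and 2.07 TPM in LRP5-null libraries, not lower. TPM was given per gene, not per exon, so these values do not show whether the floxed exons were deleted. Lyz2, the gene into which Cre was inserted, was 26791, 26300 and 24797 TPM in WT and 14027, 13989 and 13360 TPM in LRP5-null libraries. It lies on chromosome 10, as do the members Elane, Prtn3, Prss57 and Srgn. Every direction below follows the labels. Neutrophil markers were abundant in both groups (Ly6g, 1000.6 TPM in WT and 1058.4 TPM in LRP5-null libraries on average), and limma called 0 of the 8 on the list (1 higher at an unadjusted p under 0.05).

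None of the 10 genes was called in the comparison of LRP5-null with WT neutrophils (limma, adjusted p under 0.05 over all genes tested). Over all 9775 genes, 52 (0.532%) were called, 26 higher and 26 lower. At an unadjusted p under 0.05, 5 of the 10 genes passed, Elane, Ctsg and Ms4a3 higher and Ctsc and Serpinb1a lower, where 23.5% of all genes tested did. The groups did not overlap for 6 of the 10 genes, against 29.7% of all genes. Of these, 4 (Elane, Ctsg, Prss57 and Ms4a3) were higher in every LRP5-null library, against 17.4% of all genes, and 2 (Ctsc and Serpinb1a) were lower in every one, against 12.3%. The median log2 fold change of the 10 genes was 0.17, beside 0.04 over all genes tested, and 8 of the 10 were positive beside 58.8% of all genes. In bulk RNA, fewer cells of a type and less RNA per cell cannot be told apart.

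**Figure D1:**
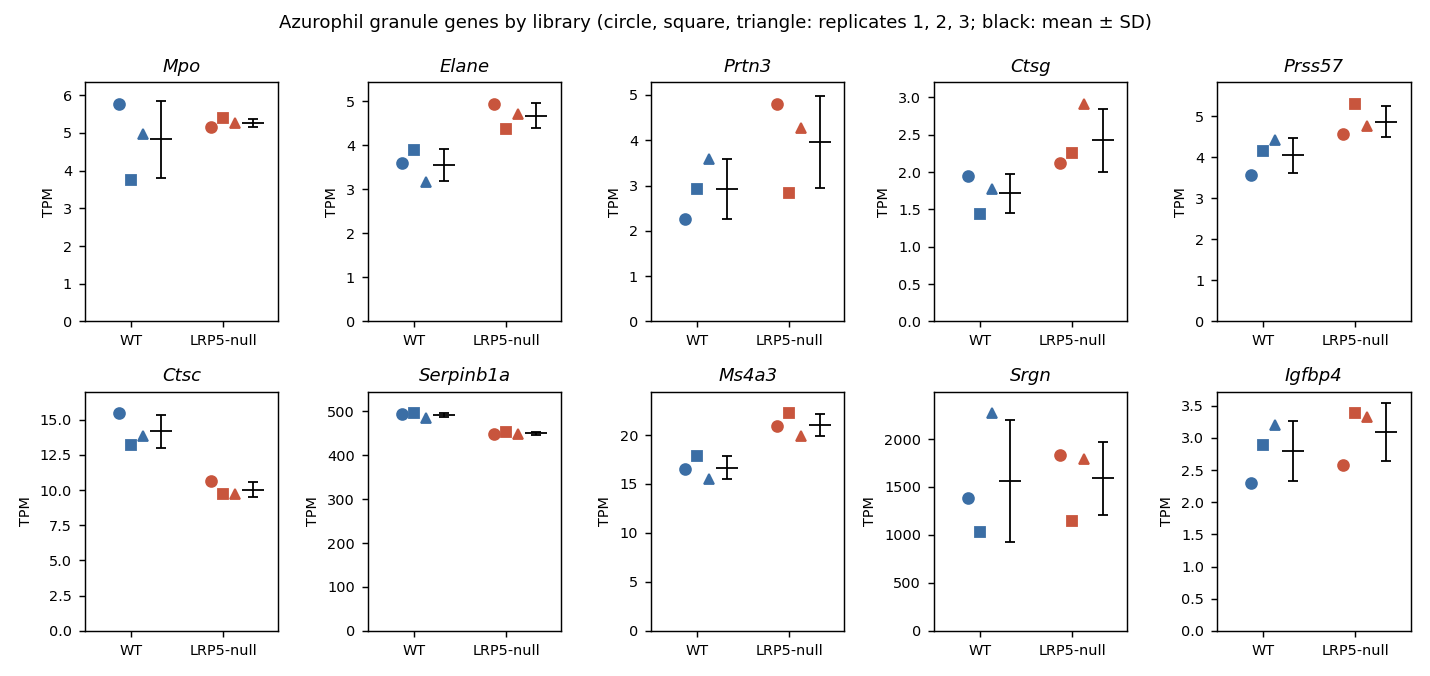
TPM of each gene (vertical axes, from 0) in the 3 WT (blue) and 3 LRP5-null (red) libraries, with the marker shape giving the replicate number and the black bar the mean ± SD. Elane, Ctsg, Prss57 and Ms4a3 lie higher in all 3 LRP5-null libraries, Ctsc and Serpinb1a lie lower, and the groups overlap for the other genes.

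Per unit of length, the level of the 10 genes covered a wide range, from serglycin at 1561 TPM in WT (rank 39 of the genes listed) and Serpinb1a at 491 TPM (rank 180) to Ctsg at 1.72 TPM (rank 8429). The order of mean levels in WT was Srgn, Serpinb1a, Ms4a3, Ctsc, Mpo, Prss57, Elane, Prtn3, Igfbp4 and Ctsg, and it was the same in LRP5-null libraries. In WT, neighbours from Mpo to Igfbp4 overlapped in their range over libraries, while each of the others stood clear of its neighbours. In LRP5-null libraries the neighbours from Mpo to Ctsg overlapped. The transcripts of the protease and peroxidase genes were thus scarce in these cells, and their inhibitor and packing protein abundant.

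Myeloperoxidase differed little. Mpo (chromosome 11, 87607083 to 87617915, plus strand; coordinates of genes are of NCBIM37) was 5.76, 3.75 and 4.96 TPM in WT and 5.16, 5.38 and 5.25 TPM in LRP5-null libraries. The LRP5-null values lay within the range of the WT values. Its mean was 4.83 ± 1.01 TPM in WT and 5.27 ± 0.11 TPM in LRP5-null libraries (SD, n = 3 each). On the log2 scale it changed by 0.12, with a 95% interval of -0.18 to 0.42 (limma, adjusted p = 0.598), and by -0.019 without WT replicate 2. Of 7 tested genes of heme synthesis, which supplies the peroxidase's cofactor, 0 were called by limma and 2 had an unadjusted p under 0.05, both higher. The smallest p-values there were those of Slc25a38, a mitochondrial carrier (log2 fold change 0.31, limma adjusted p = 0.139), Ppox (0.32, adjusted p = 0.168) and Urod (-0.10, adjusted p = 0.646).

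Among the serine proteases, elastase and cathepsin G were higher in each LRP5-null library, and proteinase 3 was not. Elane (chromosome 10, 79349057 to 79350961, plus strand) was 3.59, 3.88 and 3.18 TPM in WT and 4.94, 4.37 and 4.71 TPM in LRP5-null libraries. Its means were 3.55 ± 0.36 and 4.67 ± 0.29 TPM (SD, n = 3 each), a ratio of 1.32. The log2 fold change was 0.32 with a standard error of 0.090 (limma, adjusted p = 0.124). Leaving out any 1 library gave 0.26 to 0.37, and taking out each library's trend with GC content and length gave 0.16.
Prtn3 lies just before Elane on the same strand (chromosome 10, 79337221 to 79345919). It was 2.26, 2.91 and 3.58 TPM in WT and 4.80, 2.83 and 4.26 TPM in LRP5-null libraries. LRP5-null replicate 2 lay below WT replicates 2 and 3, so the groups overlapped. Its log2 fold change was 0.33, close to that of Elane but with a standard error of 0.182 (limma, adjusted p = 0.303). It was 0.16 with the GC and length trends taken out and 0.096 against WT replicate 3 alone. Without 1 library it ranged from 0.21 (without WT replicate 1) to 0.51 (without LRP5-null replicate 2).
Ctsg (chromosome 14, 56718718 to 56721411, minus strand) was 1.95, 1.44 and 1.78 TPM in WT and 2.13, 2.25 and 2.91 TPM in LRP5-null libraries. The groups did not overlap, though WT replicate 1 and LRP5-null replicate 1 were close. Its ratio of means, 1.41, was the highest of the 10 genes, at the lowest level. The log2 fold change, which the added 1 TPM makes smaller for so scarce a transcript, was 0.33 with a standard error of 0.119 (limma, adjusted p = 0.163).
Prss57 (chromosome 10, 79244219 to 79253706, minus strand) was 3.57, 4.15 and 4.41 TPM in WT and 4.56, 5.30 and 4.76 TPM in LRP5-null libraries. The lowest LRP5-null value was just above the highest WT value. Its log2 fold change was 0.22 with an interval of -0.0028 to 0.44 (limma, adjusted p = 0.218). It was 0.14 without the GC and length trends and 0.12 against WT replicate 3 alone. Fstl3, which overlaps it and may share its reads, was at 8.90 TPM in WT and 7.84 TPM in LRP5-null libraries (log2 fold change -0.16, limma adjusted p = 0.247).

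The summed level of the 4 serine proteases was 11.4, 12.4 and 12.9 TPM in WT and 16.4, 14.8 and 16.6 TPM in LRP5-null libraries, without overlap. Elane relative to Mpo was 0.623, 1.03 and 0.640 in WT and 0.957, 0.811 and 0.896 in LRP5-null libraries, and Prtn3 relative to Elane 0.629, 0.750 and 1.13 against 0.972, 0.649 and 0.906. Both of these ratios overlapped between the groups. No test was made on the sum or the ratios.

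The activating protease moved the other way. Ctsc (chromosome 7, 95426595 to 95459398, plus strand) was 15.4, 13.2 and 13.8 TPM in WT and 10.7, 9.71 and 9.73 TPM in LRP5-null libraries. The highest LRP5-null value was well below the lowest WT value. The means were 14.2 ± 1.15 and 10.0 ± 0.54 TPM (SD, n = 3 each), a ratio of 0.708. The log2 fold change of -0.46, with a standard error of 0.085, had the smallest adjusted p of the 10 genes (limma, 0.0651), above the threshold. It passed the threshold without WT replicate 3 (-0.47, limma adjusted p = 0.0221), where 1920 genes did, and after removal of the GC and length trends (-0.36, adjusted p = 0.0409), where 430 did. Against WT replicate 3 alone it was -0.43, with 1 library in that arm and the spread taken from the LRP5-null libraries. The direction was the same in every alternative, between -0.50 and -0.36. The TPM of Ctsc relative to the summed serine proteases was 1.36, 1.07 and 1.07 in WT and 0.649, 0.659 and 0.585 in LRP5-null libraries. This is a ratio of transcripts, not of enzyme to substrate. The transcript of Ctsc is poorer in GC than those of the serine proteases, and GC trends were not removed from the ratio.

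The inhibitor of these proteases was slightly lower. Serpinb1a (chromosome 13, 32933961 to 32943054, minus strand) was 493, 495 and 486 TPM in WT and 448, 453 and 448 TPM in LRP5-null libraries. The groups were narrow and did not overlap. The ratio of means was 0.915 and the log2 fold change -0.13 with an interval of -0.25 to -0.0018 (limma, adjusted p = 0.208). After removal of the GC and length trends it was -0.033. Relative to the summed serine proteases, the TPM of Serpinb1a was 43.4, 40.0 and 37.5 in WT and 27.3, 30.7 and 26.9 in LRP5-null libraries. GC trends were not removed from this ratio of transcripts either. Of 22 other protease inhibitors, 8 were tested and 0 called by limma. At an unadjusted p under 0.05 there were 1 higher and 1 lower, and without overlap 3 higher and 1 lower. The smallest p was that of Wfdc17, a secreted protein of the whey acidic protein family, at 234 ± 6.43 TPM in WT and 183 ± 9.07 TPM in LRP5-null libraries (SD, n = 3 each; log2 fold change -0.35, limma adjusted p = 0.0668). Cstb, an inhibitor of cysteine cathepsins, came next (0.21, adjusted p = 0.137), then Serpinb6a (0.14, adjusted p = 0.300).

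Serglycin, the most abundant of the 10, varied most. Srgn (chromosome 10, 61956581 to 61990199, minus strand) was 1384.5, 1032.2 and 2266.4 TPM in WT and 1829.3, 1148.1 and 1789.7 TPM in LRP5-null libraries. The highest and the lowest value were both WT. Between the groups it differed by 0.072 on the log2 scale, with an interval of -0.62 to 0.76 (limma, adjusted p = 0.903). It turned with the libraries used, from -0.19 without WT replicate 2 to 0.38 without WT replicate 3, and was -0.54 against WT replicate 3 alone and -0.32 with the ribosomal share as a covariate. Serglycin made up 65.4% to 80.9% of the summed TPM of the 10 genes.

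The remaining pair of genes are cell markers rather than granule proteases. Ms4a3, a membrane protein of granulocyte and monocyte progenitors, lies on chromosome 19 (11703987 to 11715341, minus strand), the chromosome of Lrp5. It was 16.6, 17.9 and 15.5 TPM in WT and 21.0, 22.2 and 19.9 TPM in LRP5-null libraries. All LRP5-null values were above all WT values, with a ratio of means of 1.26. This was a log2 fold change of 0.32 with a standard error of 0.082 (limma, adjusted p = 0.109). Its transcript was the poorest in GC of the 10, and after removal of the GC and length trends it was 0.51 and passed the threshold (limma, adjusted p = 0.0384), as 430 genes did. Relative to Ctsc, its TPM was 1.07, 1.36 and 1.12 in WT and 1.97, 2.29 and 2.04 in LRP5-null libraries.
Igfbp4, a secreted protein that binds insulin-like growth factors, lies on chromosome 11 (98902558 to 98913969, plus strand). It was 2.30, 2.88 and 3.21 TPM in WT and 2.57, 3.38 and 3.32 TPM in LRP5-null libraries, and the groups overlapped. Its log2 fold change was 0.11 with an interval of -0.18 to 0.40 (limma, adjusted p = 0.619), and -0.023 after removal of the GC and length trends. Leaving out 1 library gave 0.011 to 0.20.

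**Figure D2:**
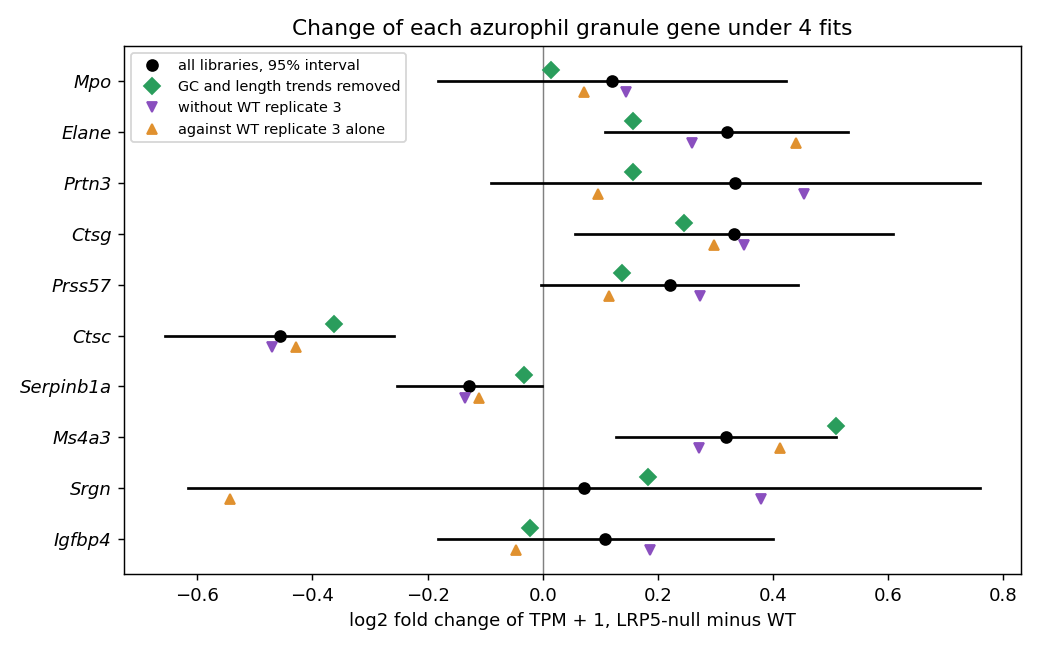
Log2 fold change of TPM + 1, LRP5-null minus WT (horizontal axis), for each gene, with all libraries and its 95% interval from limma (black), after removal of GC and length trends (green), without WT replicate 3 (purple) and against WT replicate 3 alone (orange). Ctsc lies between -0.47 and -0.36 and Ms4a3 between 0.27 and 0.51 in all 4 fits, while Srgn and Igfbp4 lie on both sides of 0.

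GC content moved with these results. Over the 8769 tested genes with a known transcript, the median log2 fold change went from -0.32 in genes of 34% to 36% GC to 0.21 in those of 64% to 66% GC. The transcripts of Mpo, Elane, Prtn3, Prss57 and Igfbp4 were GC-rich, at 56.4%, 57.7%, 60.7%, 54.1% and 58.7%, that of Ctsg was at 51.5%, and those of Ctsc, Serpinb1a, Srgn and Ms4a3 were at 43.9%, 43.6%, 42.8% and 40%. The median of all genes in the GC bin of Elane was 0.12, in that of Prtn3 0.17 and in that of Ctsg 0.06, each below the gene's own value. Mpo, at 0.12, was at its bin's median of 0.12, and Igfbp4, at 0.11, was below its bin's 0.15. In the bin of Prss57 the median was 0.13 against the gene's 0.22. In the bin of Ctsc and Serpinb1a it was -0.09, and in that of Ms4a3 -0.21, opposite in sign to the gene's own 0.32. After removal of the trends, 3 of the 10 genes had groups that did not overlap, beside 33.5% of all genes, and the median of the 10 was 0.15.

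**Figure D3:**
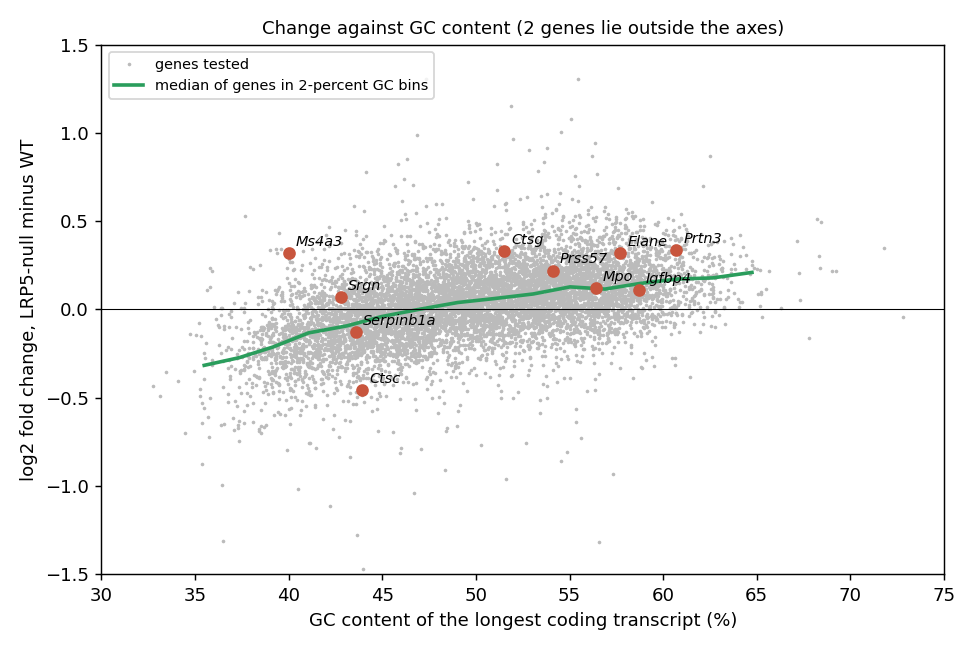
Log2 fold change, LRP5-null minus WT (vertical axis), against the GC content in percent of each gene's longest coding transcript (horizontal axis), for 8769 genes tested (grey), with the median in GC bins 2 percentage points wide (green) and the 10 azurophil granule genes (red). The median rises with GC content, Elane, Prtn3 and Ctsg lie above it, Ctsc lies below it, and Ms4a3 lies above it by the widest margin.

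Other contents of azurophil granules and lysosomes moved in both directions, with a median near that of all genes. Of 23 such genes 21 were tested and 0 called by limma. At an unadjusted p under 0.05, 3 were higher and 1 lower, beside 23.5% of all genes in either direction. Without overlap, 2 were higher and 2 lower, beside 17.4% and 12.3% of all genes. The median log2 fold change of the list was 0.04, as for all genes. Gaa, the lysosomal acid alpha-glucosidase, was 1.12 ± 0.16 TPM in WT and 1.96 ± 0.33 TPM in LRP5-null libraries (SD, n = 3 each; log2 fold change 0.48, limma adjusted p = 0.0907). The lysosomal membrane protein Lamp2 stood at -0.47 on the log2 scale (limma, adjusted p = 0.132).
Of 29 genes of granule protein processing and packaging 27 were tested and 0 called by limma. At an unadjusted p under 0.05, 2 were higher and 5 lower, and without overlap 2 were higher and 8 lower, beside 17.4% and 12.3% of all genes. Calr and Pdia3, a chaperone and a disulfide isomerase of the endoplasmic reticulum, had log2 fold changes of -0.37 (limma, adjusted p = 0.0648) and -0.30 (adjusted p = 0.104). Rab27a, a GTPase of granule release, was 270 ± 6.22 TPM in WT and 236 ± 4.96 TPM in LRP5-null libraries (SD, n = 3 each; -0.19, adjusted p = 0.137).
Of 19 transcription factors listed for primary granule genes 16 were tested and 1 called. The list was chosen with earlier results of these data known. Nfe2, a factor best known in erythroid and megakaryocytic cells, fell from 304, 225 and 237 TPM in WT to 122, 124 and 143 TPM in LRP5-null libraries (log2 fold change -0.96, limma adjusted p = 0.0357). This call was lost in 9 of 19 alternatives, with the direction kept. Gfi1, a repressor needed for neutrophil development, was 6.33 ± 0.52 TPM in WT and 8.40 ± 0.01 TPM in LRP5-null libraries (0.36, adjusted p = 0.0892), and Sp1, a general activator, stood at -0.27 (adjusted p = 0.132).
Of 10 tested partners of the proteases in extracellular traps limma called 0, and 1 was higher and 1 lower at an unadjusted p under 0.05. The smallest p-values were those of the oxidase subunits Ncf1 (log2 fold change -0.22, limma adjusted p = 0.141) and Cyba (0.20, adjusted p = 0.149) and of the histone gene H2afx (0.19, adjusted p = 0.258). With the GC and length trends taken out, Cyba was at 0.018 and H2afx at 0.019.

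The granules formed later in maturation gave medians on the other side of that of all genes, and the difference between lists was not tested. The 15 specific granule genes had a median log2 fold change of -0.090, with 1 called, Lyz2 (25963 ± 1039 TPM in WT and 13792 ± 375 TPM in LRP5-null libraries, SD, n = 3 each; limma adjusted p = 0.00351), the gene into which Cre was inserted. Within this list the cathelicidin gene Camp (0.35, adjusted p = 0.0648) and the collagenase gene Mmp8 (-0.41, adjusted p = 0.0648) differed in sign. Of 11 gelatinase granule genes 10 were tested and 0 called by limma, with 1 higher and 2 lower at an unadjusted p under 0.05 and a median of -0.031. The smallest p-values were those of the formyl peptide receptor gene Fpr1 (-0.31, limma adjusted p = 0.0675), of Fcnb (0.20, adjusted p = 0.137) and of Fpr2 (-0.18, adjusted p = 0.205).

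**Figure D4:**
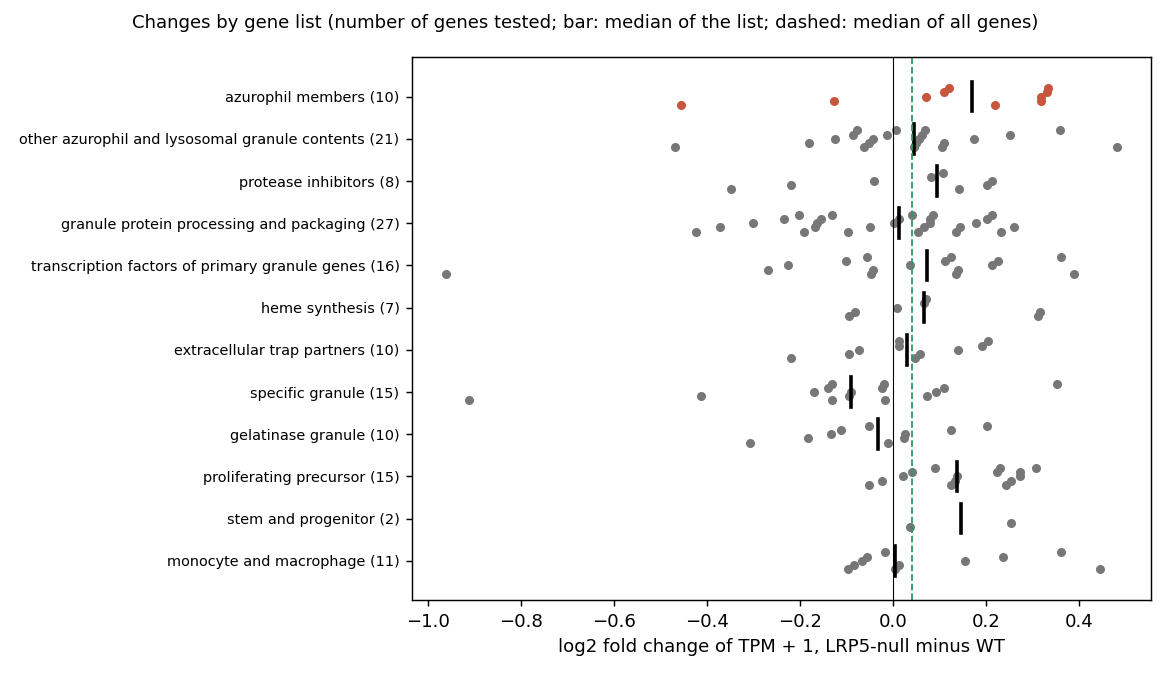
Log2 fold change of TPM + 1, LRP5-null minus WT (horizontal axis), of each tested gene in 12 lists (rows, with the number of genes tested), with the list's median (black bar) and the median of all genes tested (dashed line, 0.04). The azurophil genes (red) and the proliferating precursor genes have medians of 0.17 and 0.14, and the specific granule genes one of -0.09.

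Because azurophil genes are transcribed in precursors, markers of other cells were set beside them. All 15 markers of proliferating precursors were above the filter and none was at 0. They had a median log2 fold change of 0.14, and limma called 0. At an unadjusted p under 0.05, 6 of the 15 were higher and 0 lower, beside 23.5% of all genes in either direction, and without overlap 8 were higher, beside 17.4% of all genes. Their summed level was 1199.7 to 1297.1 TPM in WT and 1271.5 to 1349.2 TPM in LRP5-null libraries. Of 9 stem and progenitor markers 2 passed the filter, Kit and Cd93, and the sum of the list was 13.4 to 14.6 TPM in WT and 14.7 to 16.7 TPM in LRP5-null libraries. Their part in the higher Elane, Ctsg and Ms4a3 was not tested. Of 14 monocyte and macrophage markers, 11 were tested and 0 called by limma (3 higher at an unadjusted p under 0.05), with sums, mostly Ly6c2 and Cd14, of 868 to 1059 TPM in WT and 916 to 989 TPM in LRP5-null libraries. Of the 11 tested, 6 had a positive log2 fold change, and the median was 0.0034. Ccr2, F13a1, Irf8, Ctss and Cd14 were lower on average, with groups that overlapped. C1qb, Adgre1 and C1qa, named after their values were seen, were higher in every LRP5-null library. C1qb, a complement gene of macrophages, was 2.54 ± 0.12 and 3.82 ± 0.27 TPM (SD, n = 3 each; limma adjusted p = 0.0648), Adgre1, the F4/80 gene, 11.4 ± 1.16 and 14.9 ± 0.65 TPM (adjusted p = 0.103) and C1qa 3.66 ± 0.25 and 4.49 ± 0.27 TPM (adjusted p = 0.160). Basophils and mast cells express serine protease genes that lie next to Ctsg on chromosome 14. Of their 10 markers 3 were tested and 0 called by limma. The 1 higher at an unadjusted p under 0.05 was Kit, also on the stem and progenitor list. Its means were 6.42 TPM in WT and 7.82 TPM in LRP5-null libraries. Mcpt8 and Prss34 changed by -0.048 and 0.0037 on the log2 scale. Under the filter, Ms4a2 and Fcer1a were lower on average and Cpa3 higher. Cma1, Tpsb2, Tpsab1 and Mcpt4 were at 0 in all libraries. The sums, mostly Kit, were 10.6 to 12.6 TPM in WT and 12.3 to 13.5 TPM in LRP5-null libraries. The eosinophil gene Prg2 was called (1.02 ± 0.16 TPM in WT and 2.79 ± 0.41 TPM in LRP5-null libraries, SD, n = 3 each; limma adjusted p = 0.0341), a call lost in 9 of 18 alternatives, while the eosinophil sums, nearly all Ear2, overlapped, at 148 to 173 and 151 to 159 TPM. Epx and Prg3, also eosinophil granule genes, were at means of 0.019 and 0.043 TPM in WT and 0.108 and 0.139 TPM in LRP5-null libraries. Both were under the filter and not tested, and for Prg3 the groups overlapped. Of the other eosinophil markers, Siglecf had means of 8.27 and 8.47 TPM in WT and LRP5-null libraries. In the same order, Il5ra had 0.174 and 0.180, Ear1 0.704 and 0.761, Ear6 0.764 and 0.620 and Ccr3 0.918 and 1.06 TPM. Of the markers of B and plasma cells, T and NK cells, erythroid cells and megakaryocytes, 5, 2, 4 and 2 were tested and limma called 0, with 2 higher and 1 lower at an unadjusted p under 0.05. The T and NK cell sum, mostly Cd3d, was 11.8 to 14.0 TPM in WT and 16.1 to 18.0 TPM in LRP5-null libraries. Cd3d alone had means of 10.1 and 13.9 TPM. On average Cd3e, Cd3g, Cd8a, Klrb1c and Gzma were lower in LRP5-null libraries, and Trac, Cd4, Nkg7 and Ncr1 higher. The megakaryocyte sum was 3.76 to 5.42 TPM in WT and 5.80 to 6.72 TPM in LRP5-null libraries. The part of these cells in the results was not tested.

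Within 50 kb of Elane, Prtn3, Prss57 or Ctsg, no gene was called. These proteases were not called either, and only 0.532% of all genes tested were. The count therefore cannot show whether neighbours change with them. Of the other tested genes there, Ptbp1, Med16, Kiss1r, Arid3a, Rnf126 and Palm were higher on average in LRP5-null libraries, with groups that overlapped. R3hdm4, Fstl3 and Mcpt8 were lower on average. Cfd, which follows Elane, was at 0 in both groups, and Mcpt8, next to Ctsg, changed by -0.048 on the log2 scale (limma, adjusted p = 0.870). Over the 6 libraries, the genes whose log2(TPM + 1) was most like the mean of Elane, Prtn3, Ctsg and Prss57 were Cog7, Nol9, Tarbp2, Hes6 and Tnk2, with Pearson's r of 0.9951, 0.9944, 0.9942, 0.993 and 0.9923. The difference between the groups enters this measure, and these are the 5 highest values among all genes tested, so the values are a description of the libraries.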

How the data were processed

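Per the labels, neutrophils were isolated from bone marrow on a discontinuous Percoll gradient and libraries were made with an mRNA kit. In the methods the cells were sorted as CD11b+ Ly6G+, the kit was for stranded total RNA and reads were single-end, whereas the deposited read summary lists paired reads of 94 bases. The authors aligned reads to mm9 and name DESeq2, and deposited TPM. The tool that gave TPM is not given in the sources used here. A read summary that the authors deposited holds counts of reads, percent of reads by class, a ratio of coverage at transcript ends and a score of coverage variation. TPM keeps no depth, so the counting error of a gene is unknown.

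The 9775 genes whose mean reached 1 TPM were tested on log2(TPM + 1) with limma 3.58.1 in R 4.3.3, with a mean-variance trend, all 6 libraries and no covariates, and Benjamini-Hochberg adjustment over all genes tested. Fold changes on this scale understate those of scarce genes. The exact permutation test of a single gene cannot go below p = 0.1 with 3 libraries against 3 and was not used. Intervals are 95% intervals from limma. Coordinates, GC content and transcript sequences came from GENCODE M1 (NCBIM37) and covered 89.7% of genes tested. GC and length trends were removed per library with splines of 4 degrees of freedom. Promoters came from RefSeq (GRCm38.p6). Shares given for all promoters are of 27025 first entries, with a chromosome left out.

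The members and the gene lists were chosen with earlier results of these data known. Named genes are all members, in each list the genes called and the 3 with the smallest p, those within 50 kb of 4 proteases, and the 5 most alike over libraries. A gene that this rule names is not reported here. Alternatives were another pseudocount (0.1), other filters, scalings and limma settings, each library left out, WT replicate 3 alone, the replicate number as a block, removal of GC and length trends and the ribosomal share as a covariate.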

Additional observations from a re-analysis of the deposited data

How the results depend on the processing

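Of 185 values of the 10 genes over 19 alternatives, 172 kept direction and side of the threshold, 3 passed it newly and 10 reversed. The number of all genes called moved from 52 to 3 without a filter, to 29 at a mean of at least 5 TPM, to 95 (68 higher, 27 lower, against 26 and 26) when TPM was rescaled without the most abundant genes, to 6 against WT replicate 3 alone, to 430 (157 higher, 273 lower) with GC and length trends removed and to 6 with the ribosomal share as a covariate. Leaving out 1 library gave 2 to 1920, the highest without WT replicate 3, the cause of which was not tested. Other scalings gave 77 (median ratio) and 47 (quantile).

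Of the 10 genes, 2 were called with GC and length trends removed (Ctsc and Ms4a3), and 0 to 1 with a library left out (Ctsc, without WT replicate 3). Those without overlap were 3 of the 5 tested at a mean of at least 5 TPM (30.6% of all genes), and 3 with GC and length trends removed (33.5%). The median moved to 0.072 at a mean of at least 5 TPM and to 0.084 against WT replicate 3 alone, and was 0.18 to 0.27 with a library left out. Among single genes, Mpo ranged from -0.019 to 0.24 and Srgn from -0.19 to 0.38 with a library left out, and Urod turned to 0.0025 without LRP5-null replicate 2. Srgn was -0.54 against WT replicate 3 alone and -0.32 with the ribosomal covariate. Igfbp4 was -0.046, -0.015 and -0.023 against WT replicate 3 alone, with that covariate and with GC and length trends removed, and 0.011 to 0.20 with a library left out. Of 28 other genes given with a fold change, 18 moved by over 1.5 times under some alternative. Among them, Cyba was 0.018, H2afx 0.019 and Fcnb 0.088 with GC and length trends removed, and Lamp2 was -0.14 against WT replicate 3 alone. Fstl3 ranged from -0.28 to -0.11 over the alternatives. With a library left out, H2afx was 0.12 to 0.27, Ppox 0.19 to 0.40 and Fpr2 -0.11 to -0.24.

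Whether replicate numbers pair the samples was not tested. Deviations of same-numbered libraries correlated at 0.229, -0.0075 and 0.131, and those of differently numbered libraries at -0.213 to 0.0834. With the replicate block, 4 genes were called, 6 with GC and length trends removed too, where Igfbp4 was again -0.023, and 0 of the 10 in both. Each group had 3 libraries, and TPM gives no depth per gene.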
